A study of Mus musculus with 4 samples.

Results

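Muscle and tissue-specific splicing regulators are RNA-binding proteins that decide which alternative exons enter a mature transcript in a given tissue. In the heart they switch many sarcomere, ion channel and calcium-handling transcripts from fetal to adult isoforms around birth. RBM20 and RBM24 act mainly in striated muscle, CELF proteins favour many fetal exon patterns and decline after birth, MBNL proteins favour many adult patterns, RBFOX proteins promote or repress exons depending on where they bind in the neighbouring intron, and QKI, the product of Qk, belongs to the STAR family of RNA-binding proteins. The set described here has 10 genes, chosen by name from the 36814 rows of the authors' deposited table: Rbm20, Rbm24, Rbfox1, Rbfox2, Celf1, Celf2, Mbnl1, Mbnl2, Mbnl3 and Qk. All 10 were found, and Qk, which has 2 rows, is represented by the row with the higher mean level.

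RNA was sequenced from ventricles of mice at postnatal day 14, on a mixed C57BL/6 and 129 S4 background. The 2 control animals are labelled wild type. The 2 mutant animals lost Hnrnpu, which codes for the nuclear RNA-binding protein hnRNP U, by Cre recombinase under the muscle creatine kinase promoter (Ckmm-Cre). That promoter is active in striated muscle, so the other cells of the ventricle are not targeted. Each group had 1 male and 1 female. Whether the controls carried the floxed allele or the Cre transgene is not given in the labels, nor whether the animals were littermates.

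The deposited table gives 1 RPKM value per group (reads scaled by transcript length and library size) and 1 test per gene, so no level below has a spread of its own. Hnrnpu itself stood at 32.7 RPKM in control against 15.2 in mutant and was not called in the authors' deposited table (adjusted p = 0.438). The values of small RNA genes step by the worth of 1 read. By these steps the mutant libraries together held 2.44 times the reads of the control libraries, if RPKM was scaled by mapped reads. Of the 12 cardiomyocyte markers listed, all were above 0 in both groups, from 17.7 to 1840 RPKM in control and from 16.3 to 1640 in mutant, so the defining transcripts of ventricular muscle were present. The skeletal muscle regulators Myod1, Myog and Myf6 were listed at 0 in both groups. The other 9 skeletal muscle markers listed were above 0 in at least 1 group. Tnni2 was the highest of them in control, at 1.03 RPKM against 0.0633 in mutant.

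Several of the 10 regulators are close paralogs, so the coding stretches that they share were read from GENCODE M21 transcripts (GRCm38) to show how far reads could be ambiguous between them. Capitals mark the longest run of identical coding bases in each pair, and lower case marks 12 flanking bases on each side. The stretch of Rbfox1 lies across exons 8 and 9 of transcript Rbfox1-205 (chromosome 16, 7292239 to 7294083, plus strand), and that of Rbfox2 across exons 6 and 7 of Rbfox2-204 (chromosome 15, 77102926 to 77105615, minus strand).
Rbfox1: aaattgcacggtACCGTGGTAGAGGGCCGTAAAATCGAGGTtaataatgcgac
Rbfox2: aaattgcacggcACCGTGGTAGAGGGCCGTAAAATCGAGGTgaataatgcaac
The Mbnl1 stretch is in exon 3 of Mbnl1-221 (chromosome 3, 60595594 to 60595643, plus strand) and the Mbnl2 stretch in exon 3 of Mbnl2-201 (chromosome 14, 120379150 to 120379199, plus strand).
Mbnl1: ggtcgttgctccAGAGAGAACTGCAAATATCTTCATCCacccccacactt
Mbnl2: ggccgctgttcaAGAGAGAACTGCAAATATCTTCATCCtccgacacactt
The Celf1 stretch spans exons 13 and 14 of Celf1-201 (chromosome 2, 91012815 to 91013256, plus strand) and the Celf2 stretch exons 14 and 15 of Celf2-201 (chromosome 2, 6547195 to 6549859, minus strand).
Celf1: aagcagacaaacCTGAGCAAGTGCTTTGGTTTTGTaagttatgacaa
Celf2: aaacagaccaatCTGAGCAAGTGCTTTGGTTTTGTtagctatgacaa
The identical runs were 29 bases for Rbfox1 and Rbfox2, 26 for Mbnl1 and Mbnl2 and 23 for Celf1 and Celf2. With up to 2 mismatches allowed, the longest shared stretches were 56, 35 and 38 bases, and Mbnl3 shared at most 25 bases with Mbnl1 and 24 with Mbnl2. The sources used here give neither the read length nor the handling of ambiguous reads, so whether reads over the stretch of 56 bases were exchanged between Rbfox1 and Rbfox2 was not tested.

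The comparison of mutant with control asked how the levels of these regulators stood after loss of hnRNP U in striated muscle. By the authors' deposited table Rbfox1 fell and the other 9 regulators were not called. Rbm20 was the next lowest, at 37.0% of its control value, and the remaining 8 lay between 0.726 and 1.27 times control. Of the 24454 tested rows, 3.51% were called at an adjusted p below 0.05, 1.48% as lower and 2.03% as higher, and the 1 call among 10 is too few to set the group apart from that background. No regulator was called higher, and none above control had an unadjusted p below 0.05. By unadjusted p below 0.05 there were 2 regulators, both lower, where 12.6% of all tested rows lay below that value and 6.2% did so as lower rows. The median log2 fold of the 10 was 0.00, with 5 above and 5 below control, beside 0.07 over all tested rows and 0.08 over the 11292 rows averaging at least 1 RPKM. Of the 10, 9 averaged at least 1 RPKM, and Mbnl3 did not.

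**Figure D1:**
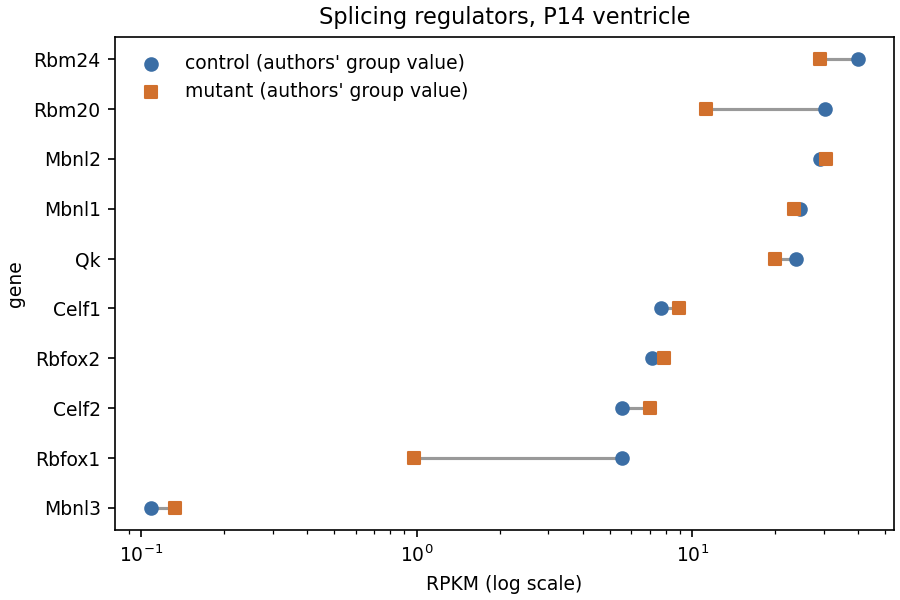
Levels of the 10 regulators in RPKM (log axis), ordered by control level, with circles for control, squares for mutant and a line joining the group values of each gene; the authors gave 1 value per group, so there are no error bars. Rbfox1 moves from 5.54 to 0.979 RPKM and Rbm20 from 30.2 to 11.2 RPKM, while the Mbnl symbols nearly coincide.

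In control ventricles the levels spanned a 370-fold range. Rbm24 was the highest at 40.0 RPKM, followed by Rbm20 at 30.2, Mbnl2 at 29.0, Mbnl1 at 24.5 and Qk at 23.7. A lower tier held Celf1 at 7.68, Rbfox2 at 7.14, Celf2 at 5.55 and Rbfox1 at 5.54 RPKM, and Mbnl3 was at 0.108 RPKM. RPKM is per transcript length, so these levels can be set beside each other as far as the authors' lengths suit the isoforms present. The annotation behind those lengths is not given in the sources used here, and the family shares below rest on the same lengths. With no spread per group the order of near neighbours such as Celf2 and Rbfox1 cannot be judged. In mutant ventricles Mbnl2 came first and Rbm20 had moved from rank 2 to rank 5.

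Rbfox1 (chromosome 16, 6809315 to 7412572, plus strand, mm9) codes for an RBFOX protein found mainly in neurons, heart and skeletal muscle. Its level was 5.54 RPKM in control and 0.979 in mutant, which is 5.66-fold lower. In the authors' deposited table its log2 fold was -2.50 with p = 4.37e-06 and adjusted p = 0.000488. The standard error that this p implies under a normal approximation is 0.54, and the 95% interval of the log2 fold ran from -3.57 to -1.43. Of the 11292 rows averaging at least 1 RPKM, 218 (1.93%) were called lower, and 47 of these had a smaller p than Rbfox1. Only 0.584% of the 11292 had a lower log2 fold. Scaled to the exonic length in GENCODE M21, its values correspond to about 1300 reads in control and 570 in mutant, under the same assumption on scaling as above. These are bulk samples, so fewer cells that express Rbfox1 and less Rbfox1 RNA per cell cannot be told apart.

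Rbfox2 (chromosome 15, 76909420 to 77137483, minus strand), the more widely expressed paralog, was at 7.14 RPKM in control and 7.86 in mutant. Its fold in the authors' deposited table was 1.10, with p = 0.776 and adjusted p = 1. Its 95% interval, from 0.571-fold to 2.12-fold, does not reach the size of the Rbfox1 fall. The difference between the log2 folds of Rbfox1 and Rbfox2 was -2.64, with a 95% interval from -4.06 to -1.21 when the implied errors are combined as independent, so the paralogs differed by more than these errors. Rbfox1 made up 43.6% of the summed RPKM of the family in control and 11.0% in mutant, while Rbfox2 made up 56.2% and 88.7%. Rbfox3, the neuronal member, was at 0.0162 and 0.0257 RPKM. The family sum went from 12.7 to 8.86 RPKM, a ratio of 0.698.

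**Figure D2:**
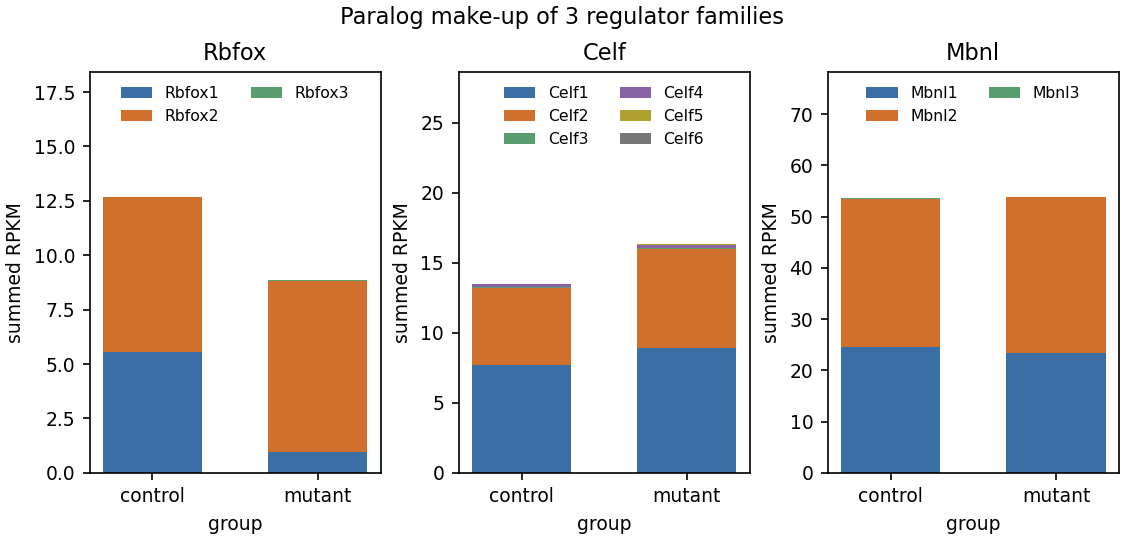
Summed RPKM of the Rbfox, Celf and Mbnl families in control and mutant, stacked by paralog, on axes that start at 0 and differ between panels. The Rbfox1 segment shrinks from 43.6% to 11.0% of its family, whereas the division between Celf1 and Celf2 and between Mbnl1 and Mbnl2 shifts by less than 3 percentage points.

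Rbm20 (chromosome 19, 53751796 to 53941570, plus strand) codes for the repressor of titin exons, and mutations in the human gene cause dilated cardiomyopathy. Its level was 30.2 RPKM in control and 11.2 in mutant, 2.70-fold lower. This change, -1.43 on the log2 scale in the authors' deposited table, had p = 0.0162 and adjusted p = 0.211 and was not called. The 95% interval ran from -2.60 to -0.27 on the log2 scale, and 3.67% of rows averaging at least 1 RPKM had a lower log2 fold. At its implied error of 0.60, a change of about 3.64-fold would have been needed for a call. A pair of noncoding rows on the other strand within the span of Rbm20 were also lower in mutant. Gm16299 was at 1.51 RPKM in control and 0.442 in mutant, and the pseudogene Gm16298 at 1.88 and 0.355. In the authors' deposited table these had adjusted p = 0.115 and 0.146. The use of strand in counting is not given, so reads of Rbm20 and of these rows cannot be told apart.

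Rbm24 (chromosome 13, 46513669 to 46526459, plus strand), a muscle splicing activator needed for sarcomere assembly, was at 40.0 RPKM in control and 29.0 in mutant. The fold of 0.726 in the authors' deposited table had p = 0.418 and adjusted p = 0.945, with a 95% interval from 0.335-fold to 1.58-fold. Rbm24 stood at 1.32 times the level of Rbm20 in control and 2.59 times in mutant. Rbm38, its closest paralog, was at 27.4 and 24.3 RPKM.

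**Figure D3:**
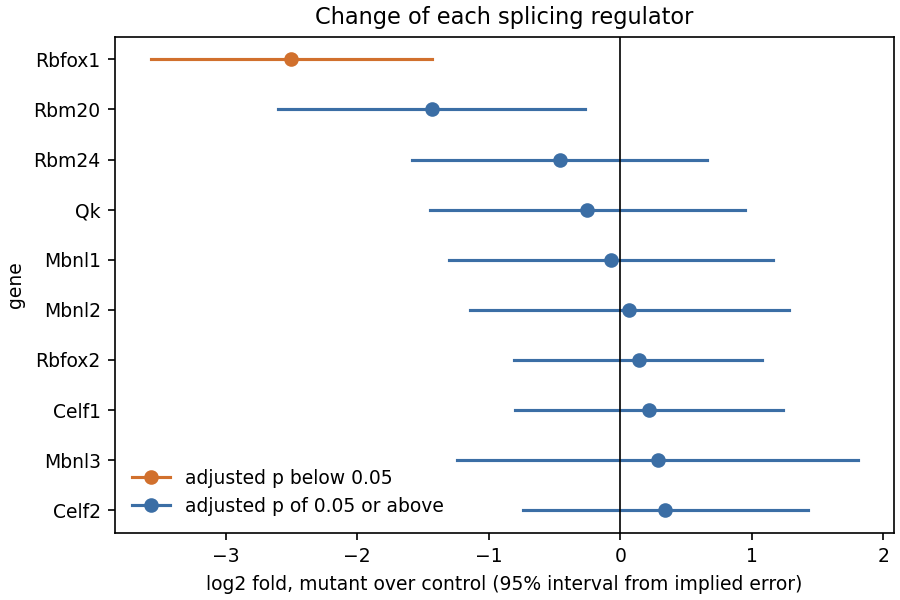
Log2 fold of mutant over control for each regulator, with the 95% interval from the error implied by the authors' p-value; orange marks the gene with an adjusted p below 0.05. The intervals of Rbfox1 (-3.57 to -1.43) and Rbm20 (-2.60 to -0.27) lie below 0, and those of the other 8 genes cross it.

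The CELF genes were slightly above control in the deposited values and were not called. Celf1 (chromosome 2, 90780539 to 90859654, plus strand) was at 7.68 RPKM in control and 8.93 in mutant, a fold of 1.16 with p = 0.676 and adjusted p = 1 in the authors' deposited table. Celf2 (chromosome 2, 6460751 to 7002348, minus strand) was at 5.55 and 7.04 RPKM, a fold of 1.27 with p = 0.533 and adjusted p = 0.9999 in the authors' deposited table. The 95% intervals under the normal approximation were 0.573-fold to 2.36-fold for Celf1 and 0.599-fold to 2.69-fold for Celf2. A fall to 0.5 of control lay outside both of these approximate intervals and a rise of 2-fold lay inside both. Celf1 held 56.9% of the summed family RPKM in control and 54.6% in mutant, and Celf2 41.1% and 43.1%. The 4 other members, Celf3 to Celf6, were at or below 0.215 RPKM in both groups.

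Of the MBNL genes, Mbnl1 (chromosome 3, 60277032 to 60433670, plus strand) was at 24.5 RPKM in control and 23.4 in mutant, and Mbnl2 (chromosome 14, 120674891 to 120830919, plus strand) at 29.0 and 30.4. Their folds in the authors' deposited table were 0.954 and 1.05, with p = 0.914 and 0.909 and adjusted p = 1 for both. Their 95% intervals, 0.407-fold to 2.24-fold and 0.455-fold to 2.42-fold, still include a change of 2-fold. Mbnl3 (chromosome X, 48470446 to 48559709, minus strand) was at 0.108 and 0.132 RPKM, about 51 and 150 reads by the length estimate, with p = 0.71 and adjusted p = 1 in the authors' deposited table. Mbnl1 held 45.7% of the family sum in control and 43.4% in mutant, Mbnl2 54.1% and 56.4%, and Mbnl3 0.201% and 0.245%. The family sum was 53.6 and 53.9 RPKM.

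Qk (chromosome 17, minus strand) has a main row from 10399336 to 10512245, at 23.7 RPKM in control and 19.9 in mutant. Its fold of 0.839 in the authors' deposited table had p = 0.679 and adjusted p = 1, with a 95% interval from 0.365-fold to 1.93-fold. The other Qk row, 285 bases long from 10512810 to 10513094, lies 564 bases beyond the 5′ end of the main row and was at 1.28 RPKM in control and 0.272 in mutant. In the authors' deposited table this short row had a fold of 0.212, with p = 0.0357 and adjusted p = 0.334, so it was not called.

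The lack of calls has a size attached to it. The implied errors ran from 0.48 to 0.63 on the log2 scale for the 9 genes averaging at least 1 RPKM. By the normal approximation a change would have had to reach about 2.85-fold to 3.90-fold to be called, and 5.40-fold for Mbnl3. Over all called rows of the authors' deposited table the smallest change was 3.03-fold, so no row was called at the 2.85-fold estimated for Rbfox2. Errors implied from a p near 1 are rough. In the authors' deposited table Vps39 had p = 0.994 and Pdgfrb p = 0.978, which imply errors of 0.40 and 0.98. Rows averaging at least 10 RPKM had a median log2 fold of 0.30 (2329 rows). Measured from that median, Rbfox2, Celf1, Mbnl2 and Mbnl3 turned from above to below, 9 of the 10 genes lay below it, Celf2 lay 0.04 above, and Rbfox1 and Rbm20 were at -2.80 and -1.74. None of the 4 that turned was called. Rbfox1, Rbfox2, Celf1, Celf2 and Mbnl3 themselves averaged less than 10 RPKM. Measured instead from the median of rows averaging at least 1 RPKM, 0.08, 6 of the 10 genes lay below. Only Mbnl2 turned there, to -0.01.

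**Figure D4:**
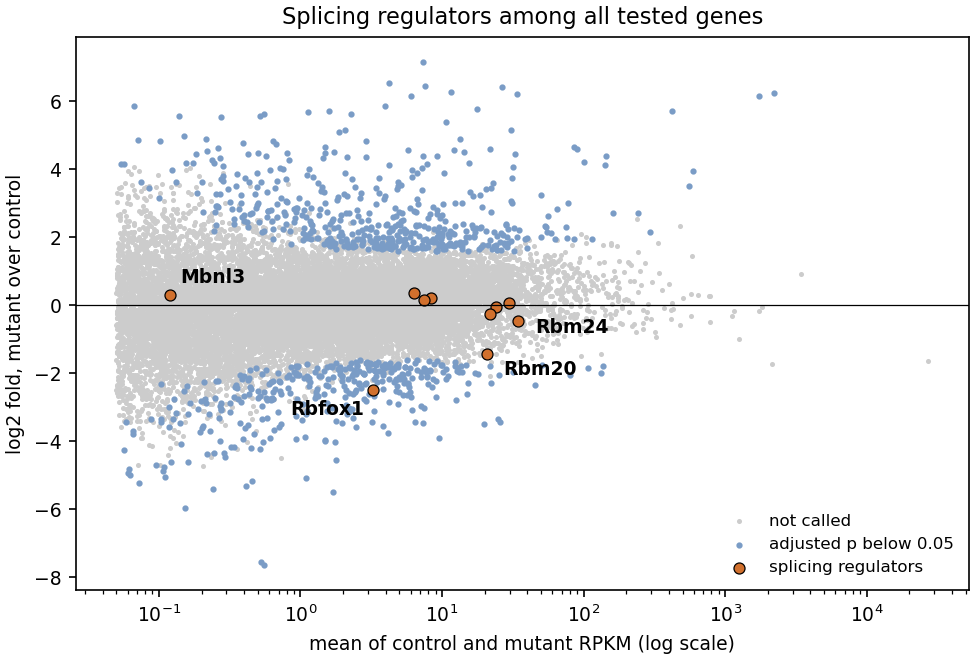
Log2 fold of mutant over control against the mean RPKM of both groups (log axis) for tested genes above 0 in both groups and with a mean of at least 0.05 RPKM; grey points were not called, blue points had an adjusted p below 0.05, and orange points are the 10 regulators. Rbfox1 lies among the called genes at a log2 fold of -2.50, Rbm20 at -1.43 sits at the edge of the uncalled cloud, and the unlabelled regulators lie near 0.

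Family relatives of the 10 regulators were listed as well. Of 12 measured, 0 were called in the authors' deposited table, 2 had an unadjusted p below 0.05, and the median log2 fold was -0.23. Over all tested rows 3.51% were called and 12.6% had an unadjusted p below 0.05. Khdrbs3, a STAR family protein related to QKI, was at 14.9 RPKM in control and 6.35 in mutant, with adjusted p = 0.209 in the authors' deposited table. Celf5 was at 0.0158 and 0.0906 RPKM (adjusted p = 0.255 in the authors' deposited table). Zfp638, listed as Zfml and related to RBM20 by its zinc fingers, was at 9.17 and 4.69 RPKM (adjusted p = 0.439 in the authors' deposited table).

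Among 22 other tissue-restricted or antagonistic splicing regulators 1 fell (4.55%, beside 3.51% of all tested rows), 21 were not called, and the median log2 fold was -0.14. Tia1, which helps U1 snRNP to recognise weak splice sites and also forms stress granules, fell from 8.28 to 1.83 RPKM. Its log2 fold in the authors' deposited table was -2.18 (implied standard error 0.55), with p = 7.23e-05 and adjusted p = 0.00458. Of the regulators known from neurons, Elavl2 had 0.174 RPKM in control against 0.0373 in mutant and Srrm4 had 0.318 against 0.853, neither called. Ptbp1, which represses many muscle and neuronal exons, was at 8.46 and 9.45 RPKM, and Ptbp2 at 11.3 and 6.76 RPKM, neither called.

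The transcripts that these proteins are known to splice were examined at the gene level only, since no exon or isoform values were analysed. Of 24 transcripts spliced by RBM20, all averaging at least 1 RPKM, 1 fell (4.17%, beside 5.28% of all rows at that level), 23 were not called and 9 had an unadjusted p below 0.05, 5 of them lower and 4 higher, a value that 17% of rows at that level reached. Kcnip2, which codes for the KChIP subunit of transient outward potassium channels, fell from 12.6 to 1.61 RPKM, a log2 fold of -2.96 in the authors' deposited table (implied standard error 0.54) with adjusted p = 8.15e-06. Pdlim3, a Z-disc protein, was at 10.3 and 30.4 RPKM, and Cacna1c, the pore of the L-type calcium channel, at 19.3 and 5.81 RPKM. In the authors' deposited table these had adjusted p = 0.0598 and 0.0617. With adjustment over rows of at least 1 RPKM alone, 3 of the 24 passed, beside 6.31% of all rows under that adjustment. Ttn, the best known RBM20 target, was at 71.2 and 39.1 RPKM (adjusted p = 1 in the authors' deposited table), with a wide implied standard error of 2.54.

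Of 28 muscle transcripts spliced by MBNL, CELF, RBFOX or RBM24, 1 fell (3.57%, beside 3.51% of all tested rows) and 27 were not called. Of the 28, 20 were below control, a larger share than the 47.1% of all tested rows, and the median log2 fold was -0.37. The difference between these shares was not tested. Clcn1, the muscle chloride channel that is mis-spliced when MBNL proteins are sequestered in myotonic dystrophy, fell from 0.850 to 0.0467 RPKM, a log2 fold of -4.19 in the authors' deposited table (implied standard error 0.73) with adjusted p = 2.93e-06. Its mean is below 1 RPKM, and it overlaps Fam131b on the other strand, at 0.332 and 0.456 RPKM. Abcc9, a subunit of potassium channels gated by ATP, was at 19.2 and 7.46 RPKM, and Cacna1s, the skeletal muscle calcium channel, at 0.0567 and 0.0118 RPKM, both without a call.

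**Figure D5:**
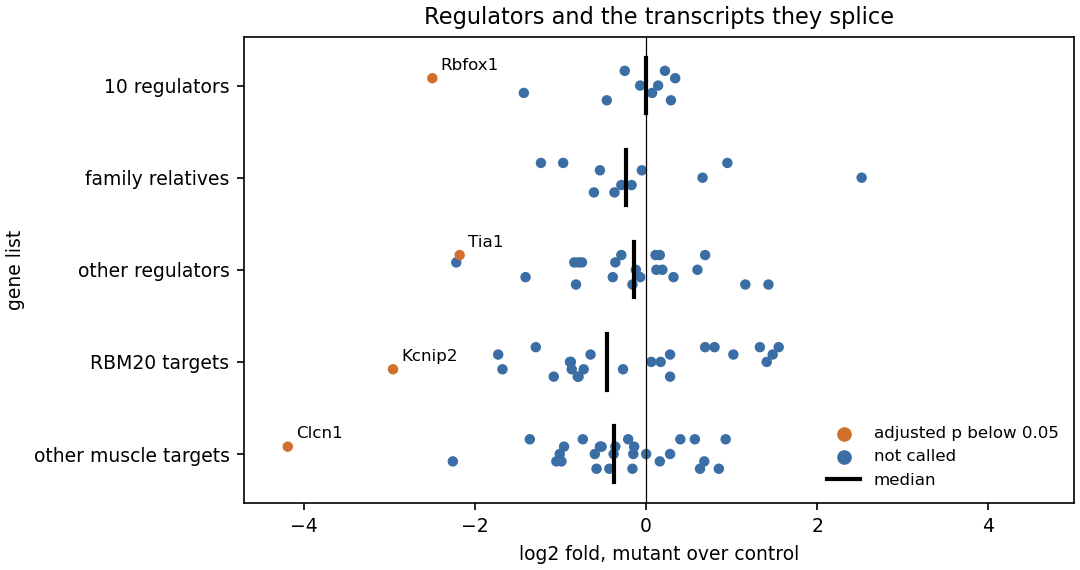
Log2 fold of mutant over control for the 10 regulators, their family relatives, other regulators and the transcripts they splice; each point is 1 gene, orange points had an adjusted p below 0.05, and black bars are list medians. Each list but the family relatives holds 1 called gene, and list medians lie between -0.46 and 0.00; Celf6, listed at 0 in control, is not drawn.

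Markers of ventricular cell types are given beside these values because Rbfox1, Rbm20 and Rbm24 are muscle genes. Over all tested rows 3.51% were called, 12.6% had an unadjusted p below 0.05 and 47.1% were below control. Over rows averaging at least 1 RPKM 5.28% were called and 17% had an unadjusted p below 0.05. The 12 cardiomyocyte markers summed to 8117 RPKM in control and 6160 in mutant, a ratio of 0.759. Of the 12, 10 were below control, none was called in the authors' deposited table and 1 had an unadjusted p below 0.05. Their implied standard errors ran from 0.52 for Nkx2-5 to 3.22 for Myh6 on the log2 scale, so large changes could go uncalled. Myh6, at 1660 RPKM in control and 840 in mutant, had the largest fall in RPKM among them and weighs most on that ratio. The macrophage markers summed to 81.3 and 229 RPKM. Of these 12, 11 were above control, 5 had an unadjusted p below 0.05 and Lyz2 was called, from 18.4 to 90.5. The fibroblast markers summed to 823 and 1137 RPKM (8 of 12 above, 0 called and 5 with an unadjusted p below 0.05). Mural and smooth muscle cell markers summed to 289 and 947 RPKM (6 of 9 above, 3 with an unadjusted p below 0.05, and Tagln called, from 9.76 to 42.6). Acta2, at 158 and 802 RPKM and not called, carries that sum, and the other 8 summed to 131 and 145. The endothelial markers summed to 194 and 201 RPKM (4 of 11 above, with Vwf called, from 1.54 to 7.79). The neuron and glia markers, cells that also express Rbfox1 and Celf2, summed to 5.41 and 12.2 RPKM with 6 of 10 above control and Tubb3 called, from 0.501 to 6.67. Tubb3 overlaps Galnt2 on the same strand, and Tagln overlaps Pcsk7 on the other strand. The 5 atrial markers summed to 41.4 and 29.0 RPKM, with 0 called and 1 with an unadjusted p below 0.05. The skeletal muscle markers summed to 1.48 and 0.501 RPKM, with 9 of 12 above 0 in a group and Tnni2 called lower, from 1.03 to 0.0633. In the endothelial, neuron and glia, and skeletal muscle lists only the called gene had an unadjusted p below 0.05. The Rbfox1 value in mutant was 0.177 of control beside the cardiomyocyte marker ratio of 0.759, and the part of cell make-up in the fall of Rbfox1 was not tested.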

How the data were processed

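RNA from 4 ventricle samples, 2 control and 2 mutant by their titles, was analysed through 1 deposited table. Per the file headers, the authors gave RPKM values for control and mutant, 1 per group, and for each row a fold (ratio), the log2 of that fold, and raw and adjusted p-values. Bowtie 0.12.9, build mm9 and DESeq (no version) appear in the submitters' processing notes, with no role for each. Not given in the sources used here are the annotation, the counter and whether strand was used. No values per animal were analysed, so the p-values rest on the authors' test, and whether the animals of a group came from separate litters is not stated. The spread between replicates could not be computed.

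The table was checked: the RPKM ratio lay within 0.971% of the deposited fold in the 10320 rows where neither group was below 1 RPKM, and a recomputed Benjamini-Hochberg adjustment over 24454 tested rows lay within 0.593% of the deposited adjusted p-value. A further 12360 rows were at 0 in both groups and untested. Calls are adjusted p below 0.05. A standard error was implied from each log2 fold and p by a normal approximation, which DESeq's test need not follow exactly. Levels were estimated as reads from exonic lengths of GENCODE M21, which is on another build. Named genes were the 10 members, rows overlapping them, and in each further list the called genes and the 3 lowest p-values (in marker lists the called genes only); Ptbp1, Ptbp2, Ttn, Rbm38, Rbfox3, Celf3 to Celf6, Acta2, Myod1, Myog and Myf6 fall outside that rule and were chosen after their values were seen. Symbols of 4 list genes were matched through RefSeq synonyms (GRCm38.p6). The members and lists were chosen with earlier results of these data known. Python 3.11.15, pandas 2.3.3, SciPy 1.17.1 and NumPy 2.4.6 were used. Alternatives were other adjustment sets, thresholds, pseudocounts and centring.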

Additional observations from a re-analysis of the deposited data

How the results depend on the processing

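The call of Rbfox1 as the single called regulator held under other adjustments of the p-values of the authors' deposited table. Its adjusted p was 0.000297 over rows of at least 1 RPKM and 0.000403 over protein coding rows. It was also the single call at thresholds of 0.1 and 0.01 and with the short Qk row in place of the main one. Those outcomes followed from the deposited adjusted p-values, 0.000488 for Rbfox1, 0.211 for Rbm20 and 0.334 for the short Qk row, so they were no check. Rbm20 was not called under either adjustment of the p-values of the authors' deposited table (adjusted p = 0.149 and 0.185). The median log2 fold of the 10 genes ran from -0.30, centred on rows of at least 10 RPKM (an alternative chosen after seeing the data), to 0.00. With a pseudocount of 1 RPKM the difference between the log2 folds of Rbfox1 and Rbfox2 was -1.85, since a pseudocount shrinks the fold of a gene near 1 RPKM. Adjusted over rows of at least 1 RPKM, 3 RBM20 targets were called, and 0 of the other muscle targets, where Clcn1 drops out by its level. Summing all rows of a symbol left the family shares of Rbfox1, Rbfox2, Celf1, Celf2, Mbnl1, Mbnl2 and Mbnl3 unchanged in both groups. This was no check on those shares. Of the 10 genes only Qk has more than 1 row, so the sum added no row for the genes named. No paired analysis was possible because the table gives 1 value per group, and for the same reason no replicate could be left out. Depth was seen only through the steps of low values, so errors come from the authors' p-values alone.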

Other observations

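The table places 9 small rows within the span of 4 of the 10 regulators, none of them called in the authors' deposited table. Values below control were listed for 8 of the 9, 5 with an unadjusted p below 0.05. All 5 lie inside Rbm20 or Celf2, so they need not be independent of each other. Of all tested rows 47.1% were below control, 12.6% had an unadjusted p below 0.05 and 6.2% did so as lower rows. One of the 8, U1.195 inside Rbfox2, carries no measured difference: its RPKM times its length, 20.1 in control and 6.54 in mutant, equals the worth of 1 read in each group, and a read is worth less in the deeper mutant libraries. Without it, 7 of 8 were below control. Inside Celf2, which stood at 5.55 RPKM in control and 7.04 in mutant, Gm10115 on the same strand was at 4.81 and 1.44 RPKM, with p = 0.00228 and adjusted p = 0.0592 in the authors' deposited table. Gm13389, on the other strand within Celf2, was at 0.673 and 0.139 RPKM, Gm10855 at 0.431 and 0.214 RPKM, and 7SK.9 at 0.232 RPKM in control and listed at 0 in mutant. The 7SK.9 value in control rests on few reads: its RPKM times its length was 74.5, where 1 control read is worth 17.1 or 20.1. Inside Rbfox2, at 7.14 and 7.86 RPKM, the long noncoding RNA 1700109K24Rik was at 0.350 and 0.0867 RPKM. Gm16661 inside Mbnl2 was at 0.991 and 1.34 RPKM.

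A related count was made over the whole table after these values had been seen. It took rows with a mean from 0.2 to 5 RPKM that are neither protein coding nor of a small RNA class, a filter that 5 of the 9 rows above meet, 4 of them below control. Of 587 such rows inside a protein coding row, 65.4% were below control, with a median log2 fold of -0.58, 20 called lower and 1 called higher in the authors' deposited table. Of 977 such rows in no protein coding row, 47.2% were below control, with a median of 0.07 and 18 called in each direction. In the narrower range from 1 to 5 RPKM the contrast was smaller, at 55.6% of 196 rows inside and 42.4% of 401 outside. The difference between these shares was not tested, nor was the part of the unequal depth in it.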
